A study of Mus musculus with 18 samples.

Results

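The comparison described here set mouse striata with 1 functional CK2α' allele against striata with both, across the Htt genotypes of the study. The members were chosen from the genotype labels alone. Of 18 RNA-seq libraries, 1 per mouse, 8 came from mice with 1 allele and 10 from mice with both. The 8 libraries were 3 from CK2α'(+/-) mice and 5 from zQ175:CK2α'(+/-) mice, and the 10 were 5 from WT and 5 from zQ175 mice. zQ175 mice are a Huntington's disease (HD) model that carries, on 1 Htt allele, a knocked-in expanded CAG repeat in the full-length gene. All mice were 12 to 14 months old, all samples were bulk striatum, and the labels give C57BL/6 as the strain of every group. Per the study's methods, the CK2α' mutant allele was made on a mixed 129/SvEv and C57BL/6J background and then crossed to C57BL/6J for over 10 generations, and it was present here only in the heterozygous state. The study asked what lowering CK2α' does in the HD striatum. The question taken up here is which transcripts differed with CK2α' allele number irrespective of the zQ175 allele.

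Protein kinase CK2 is a serine/threonine kinase with a large set of substrates. The holoenzyme is a tetramer of catalytic subunits, CK2α (gene Csnk2a1) or CK2α' (gene Csnk2a2), on a dimer of the regulatory subunit CK2β (gene Csnk2b). The catalytic subunits are close in sequence and partly overlap in function, and CK2α' is enriched in brain and testis. Among the proteins that CK2 is known to phosphorylate are the heat shock factor HSF1, its regulators among the chaperones, and DARPP-32 (Ppp1r1b), a signalling protein of striatal projection neurons.

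The libraries held 13612381 to 22702547 counts (median 18005044), and log2 CPM, the counts scaled to a fixed library total, correlated between libraries of one group at r = 0.95 to 0.972 across genes. Markers of striatal projection neurons were present in every library (Drd1 at 36.1 to 174.2 CPM, Ppp1r1b at 277.9 to 1481 CPM). Libraries differed in the markers of neighbouring tissue. Summed choroid plexus markers were 187.4 to 4574 CPM, with WT replicates 1 and 3, CK2α'(+/-) replicate 1 and zQ175:CK2α'(+/-) replicate 2 highest, and summed cortical excitatory neuron markers were highest in zQ175 replicate 5 at 1214 CPM. The labels give no sex, while the study's methods give the number of males per genotype. The Y-linked gene Ddx3y was above 50 CPM in 3 of 8 libraries with 1 CK2α' allele and in 4 of 10 with both, and at most 0.335 CPM in the rest. By genotype these were 1 of 5 WT, 2 of 3 CK2α'(+/-), 3 of 5 zQ175 and 1 of 5 zQ175:CK2α'(+/-) libraries, the same numbers as the males in the study's methods. Their share was thus higher with 1 allele among mice without zQ175 and lower with 1 allele among zQ175 mice. Of those with Ddx3y, zQ175 replicate 3 also held 47.1 CPM of Xist against at most 8.17 CPM in the others.

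The sequences around the start sites of the targeted gene and of a neighbour on the other strand are shown because these genes had the smallest p-values of the comparison. Both windows are RefSeq sequences of GRCm38.p6, 250 bases before to 50 bases after the start, read 5′ to 3′ on the strand of the gene, with each CG dinucleotide in capitals. The first lies at chr8:95488771-95489070 on the minus strand and the second at chr8:95496164-95496463 on the plus strand. The RefSeq start of Csnk2a2 lies 1219 bases inside the 5′ end of the gene span given below, which spans the exons listed in the deposited table, and that of 4933406B17Rik 16 bases before its start in that table.
Csnk2a2: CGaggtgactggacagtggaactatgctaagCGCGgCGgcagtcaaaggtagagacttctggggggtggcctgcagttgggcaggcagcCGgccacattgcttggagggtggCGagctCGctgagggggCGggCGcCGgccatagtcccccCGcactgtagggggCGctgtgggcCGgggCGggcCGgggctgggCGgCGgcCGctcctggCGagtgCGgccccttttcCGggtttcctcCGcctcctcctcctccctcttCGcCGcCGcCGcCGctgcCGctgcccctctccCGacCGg
4933406B17Rik: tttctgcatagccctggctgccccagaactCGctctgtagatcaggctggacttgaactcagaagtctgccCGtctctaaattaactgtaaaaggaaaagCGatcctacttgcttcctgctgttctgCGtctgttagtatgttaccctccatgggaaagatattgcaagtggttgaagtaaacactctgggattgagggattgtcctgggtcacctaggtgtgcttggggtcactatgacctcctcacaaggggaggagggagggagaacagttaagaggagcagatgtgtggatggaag
The Csnk2a2 window held 30 CG dinucleotides and was 73.0% G or C, and 11.7% of the 32851 RefSeq mouse promoter windows of this length held at least as many. The 4933406B17Rik window held 4 and was 49.7% G or C, and 68.6% of windows held at least as many. The median window held 7, and 94.6% held any; CG reads the same on both strands.

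Csnk2a2 (ENSMUSG00000046707, GRCm38 chromosome 8, 95446096 to 95490039, minus strand), which encodes CK2α', was the check of the labels. Its level in the WT libraries was 29.4, 35.0, 32.8, 30.4 and 30.5 CPM, and in the zQ175 libraries 33.7, 32.0, 37.5, 37 and 34.7 CPM. In the CK2α'(+/-) libraries it was 17.4, 14.7 and 18.02 CPM, and in the zQ175:CK2α'(+/-) libraries 18.3, 16.3, 19.9, 17.9 and 15.8 CPM. The highest library with 1 allele therefore lay well below the lowest with both, in either Htt genotype. Mean levels were 17.3 ± 1.64 CPM (SD, n = 8) with 1 allele and 33.3 ± 2.79 CPM (SD, n = 10) with both, 51.9% of the level with both. The exact two-sided permutation test of log2 CPM, with labels exchanged within Htt genotype, gave a difference of -0.94 with p = 7.09e-05, the smallest that its 14112 labellings allow. The counts are per gene and do not show from which exons the remaining reads came.

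The other CK2 subunits gave no call. Csnk2a1, the gene of the other catalytic subunit, was at 55.2 to 79.9 CPM with 1 allele and 50.7 to 68.4 CPM with both, means 63.9 ± 7.51 (SD, n = 8) and 58.1 ± 7.19 (SD, n = 10). Its log2 fold change was 0.12 (SE 0.0761, adjusted p = 0.971; exact permutation p = 0.0901). Csnk2b, the regulatory subunit, was at 41.7 ± 2.58 CPM (SD, n = 8) against 41.9 ± 4.18 CPM (SD, n = 10), a log2 fold change of -0.0028 (SE 0.0662, adjusted p = 0.998; exact permutation p = 0.95).

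Per kilobase of summed exon length, Csnk2a2 had the lowest level of the subunit genes. This length covers all annotated exons rather than those of the transcript expressed, so the gaps between genes depend on the annotation. Csnk2a2 was at 1.81 ± 0.172 CPM per kilobase (SD, n = 8) with 1 allele and 3.48 ± 0.292 (SD, n = 10) with both. Csnk2a1 was at 9.01 ± 1.06 and 8.20 ± 1.02 CPM per kilobase, and Csnk2b at 20.2 ± 1.25 and 20.3 ± 2.02. The 6 genes of casein kinase 1, an unrelated kinase family with a similar name, had log2 fold changes between -0.0755 and 0.0599, none with an adjusted p under 0.971.

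**Figure D1:**
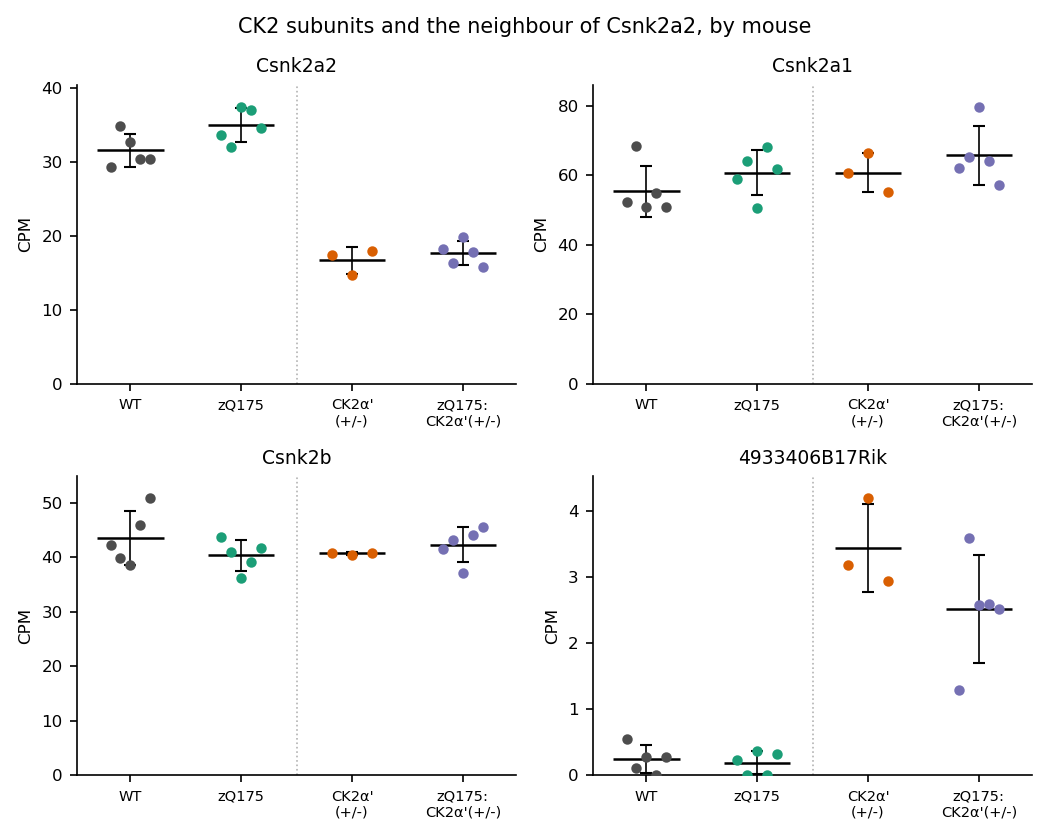
CPM of the CK2 subunit genes and of 4933406B17Rik in each library by genotype, 1 point per mouse, with bars for the group mean and SD and linear axes from 0. The 8 libraries with 1 allele lie between 14.7 and 19.9 CPM for Csnk2a2 and the 10 with both between 29.4 and 37.5 CPM, while the ranges overlap for Csnk2a1 and Csnk2b. The 4933406B17Rik values with 1 allele (at least 1.29 CPM) lie above all those with both (at most 0.548 CPM).

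Across the transcriptome, 3 of 20914 genes tested passed a false discovery rate of 0.1 (0.0143%) in the additive model, which estimates 1 effect of CK2α' allele number beside 1 effect of the zQ175 allele. DESeq2 gave 23 for the same comparison and edgeR with no filter on low counts gave 11, the 3 among them in both. Csnk2a2 and C1ql3 fell and 4933406B17Rik rose with 1 allele. At an unadjusted p under 0.05 there were 1095 genes (5.24%), 470 higher (2.25%) and 625 lower (2.99%). The median log2 fold change over all genes was -0.0048, the median absolute value 0.11, and 75.4% of genes lay within 0.25 of 0. The median standard error was 0.0882 for genes with at least 10 CPM. In counts simulated at these depths, 75% of 200 genes with a log2 change of 1 passed. There 167 genes were called against 3 here, and the more genes are called, the looser the p that passes. The 75% therefore does not give the share that would pass in these data.

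Csnk2a2 itself fell by 0.96 on the log2 scale (SE 0.0705, adjusted p = 6.7e-08), a fold of 0.514. The estimate was -0.99 within zQ175 mice (adjusted p = 1.61e-05) and -0.92 without the zQ175 allele (adjusted p = 8.97e-04), and the interaction was -0.06 (adjusted p = 0.99).

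4933406B17Rik (ENSMUSG00000110427, chromosome 8, 95496430 to 95503718, plus strand), a RIKEN cDNA gene that starts 6391 bases beyond the 5′ end of Csnk2a2 on the other strand, was near 0 with both alleles. The WT libraries were at 0.548, 0.112, 0.272, 0 and 0.278 CPM, and the zQ175 libraries at 0.234, 0, 0.369, 0 and 0.323 CPM. The CK2α'(+/-) libraries were at 3.18, 4.20 and 2.94 CPM, and the zQ175:CK2α'(+/-) libraries at 1.29, 3.59, 2.57, 2.60 and 2.52 CPM. All 8 libraries with 1 allele, at 23 to 96 counts, exceeded all 10 with both, at 0 to 11 counts. The log2 fold change was 3.74 (SE 0.458, adjusted p = 4.29e-04), a fold of 13.4, and it was 3.68 within zQ175 mice and 3.81 without the zQ175 allele. It stayed past the threshold without any single library, between 3.58 and 3.97. No gene overlaps it in the annotation used, and whether the counting used strand is not given in the sources used here.

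C1ql3 (ENSMUSG00000049630, chromosome 2, 13003457 to 13011806, minus strand) encodes a secreted C1q-like protein of excitatory synapses. Its level in the WT libraries was 3.34, 6.93, 3.20, 7.24 and 5.05 CPM, and in the zQ175 libraries 12.3, 7.65, 8.86, 8.38 and 26.0 CPM. In the CK2α'(+/-) libraries it was 1.36, 2.41 and 2.80 CPM, and in the zQ175:CK2α'(+/-) libraries 4.95, 4.31, 4.29, 1.38 and 3.43 CPM. The ranges overlapped, with 4 of 8 libraries with 1 allele below the lowest with both and 8 of 8 below the median with both. The log2 fold change was -1.57 (SE 0.279, adjusted p = 0.0823), -1.79 within zQ175 mice and -1.24 without the zQ175 allele. The call held in 7 of 18 fits without a single library (WT replicates 1, 3 or 5, zQ175 replicates 1, 2 or 4 or CK2α'(+/-) replicate 3 left out) and was lost in the other 11. Over all 18 fits the log2 fold change was -1.67 to -1.30. Among the 11 that lost the call was the fit without zQ175 replicate 5, the library highest in cortical markers (-1.30). With the cortical marker score as a covariate the log2 fold change was -0.84 (adjusted p = 0.53). The call was also lost with the replicate block, with the robust fit and without the zQ175 term. C1ql3 is itself on the list of cortical markers used for that score.

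**Figure D2:**
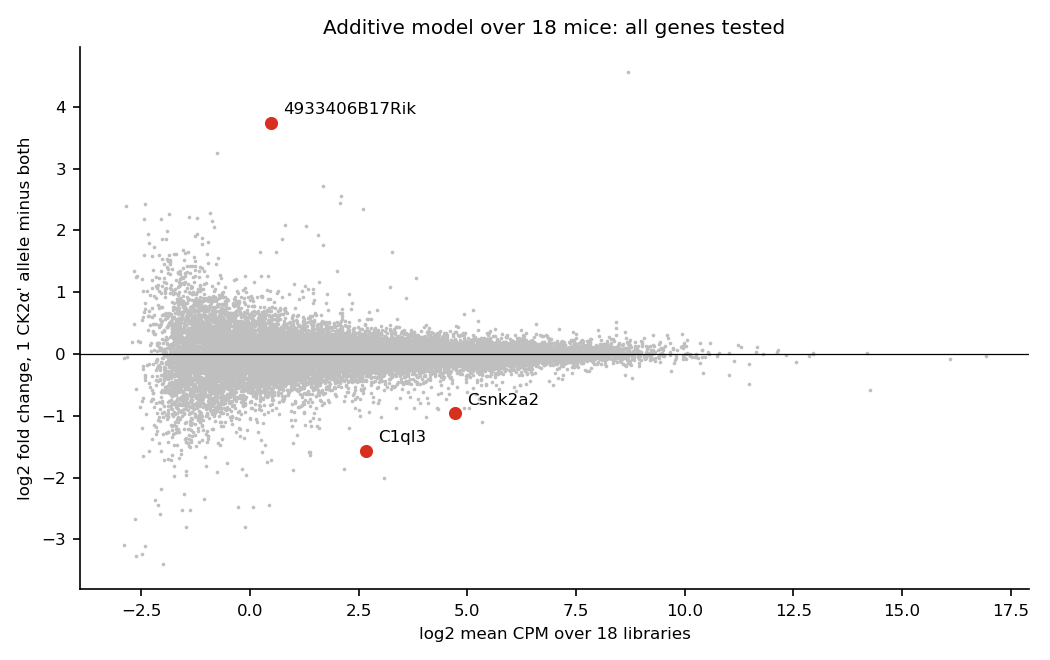
Log2 fold change (1 CK2α' allele minus both) against the log2 of the mean CPM for the 20914 genes tested in the additive model, 1 point per gene, with the genes past the false discovery rate of 0.1 named. Csnk2a2 at -0.96, C1ql3 at -1.57 and 4933406B17Rik at 3.74 are the 3 named points, and 75.4% of genes lie within 0.25 of 0.

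The 17 next genes by p-value did not pass in edgeR with the filter and are given as values. With DESeq2, 14 of the 17 passed, all but Phkb, Chl1 and Rnase6, and in edgeR with no filter on low counts 7 passed (Nr4a2, Vxn, Gm45640, Pde1a, Basp1, Cadps2 and Pcdh19). Of the 20 genes with the smallest p, 16 were lower and 4 higher with 1 allele, and 20 had the same sign in both Htt genotypes, which a choice on the pooled p favours. On chromosome 8 lay 8 of them, and 3 each on chromosomes 2 and X. Zfp92, Armcx4 and Pcdh19 were those on X.

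Among the neuronal genes, Nr4a2, an orphan nuclear receptor and activity-dependent transcription factor, came closest. It was at 6.33, 5.70, 2.31, 9.06 and 2.64 CPM in WT and at 11.7, 9.96, 13.4, 14.4 and 14.2 CPM in zQ175 libraries. It was at 2.78, 3.37 and 2.80 CPM in CK2α'(+/-) and at 2.76, 4.52, 1.23, 1.27 and 3.91 CPM in zQ175:CK2α'(+/-) libraries. All 8 libraries with 1 allele lay below the median of those with both, and the pooled log2 fold change was -1.61 (SE 0.305, adjusted p = 0.139). Within zQ175 mice it passed (-2.23, adjusted p = 0.0338), and without the zQ175 allele it was -0.81 (adjusted p = 0.999). The call within zQ175 mice was lost with the replicate block and in 5 of 18 fits without a single library, those without zQ175 replicates 3, 4 or 5 or zQ175:CK2α'(+/-) replicates 3 or 4.

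Vxn, which promotes neuronal differentiation and is on the cortical marker list, was at 7.90, 10.7 and 13.3 CPM (lowest, median and highest) with 1 allele and 9.45, 19.0 and 46.4 CPM with both (log2 fold change -1.01, adjusted p = 0.211). Pde1a, a calmodulin-dependent cyclic nucleotide phosphodiesterase, was at 19.4, 25.8 and 43.2 CPM against 26.5, 44.5 and 76.4 CPM (-0.74, adjusted p = 0.446). Basp1, a membrane-bound growth cone protein, was at 80.8, 98.2 and 110.8 CPM against 86.2, 123.4 and 185.9 CPM (-0.44, adjusted p = 0.446). In each of these genes all 8 libraries with 1 allele lay below the median with both, and the ranges overlapped. Cadps2, which primes dense-core vesicles, had a log2 fold change of -0.87, and the adhesion proteins Pcdh19 and Chl1 had -0.65 and -0.32 (adjusted p of 0.629, 0.584 and 0.584). Rnase6, a ribonuclease of phagocytes, was at most 0.101 CPM with 1 allele and at most 1.22 CPM with both, too low for its fold to be read.

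4 genes had ranges that did not overlap between mice with 1 allele and mice with both (0.0191% of genes tested), namely Csnk2a2, 4933406B17Rik, Lpcat2 and Fto. All 4 lie on chromosome 8. Lpcat2, a lysophosphatidylcholine acyltransferase that makes platelet-activating factor, was at 5.78, 7.60 and 9.001 CPM (lowest, median and highest) with 1 allele and 9.19, 10.7 and 15.7 CPM with both. Its log2 fold change was -0.57 (SE 0.118, adjusted p = 0.211). Fto, an RNA demethylase, was at 123.2, 133.4 and 137.3 CPM against 137.3, 149.9 and 161.2 CPM, so that the ranges all but touched (-0.19, SE 0.0468, adjusted p = 0.584).

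Slc7a5, the large neutral amino acid transporter, had, after 4933406B17Rik, the smallest p among the genes higher with 1 allele. It was at 24.1, 27.5 and 33.1 CPM with 1 allele and 18.8, 21.1 and 25.03 CPM with both, with 7 of 8 libraries above the highest with both (0.37, SE 0.0762, adjusted p = 0.211). Phkb, the regulatory β subunit of phosphorylase kinase, was at 40.6, 44.0 and 48.7 CPM against 32.3, 37.9 and 41.7 CPM, with 6 of 8 libraries above (0.24, adjusted p = 0.584).

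**Figure D3:**
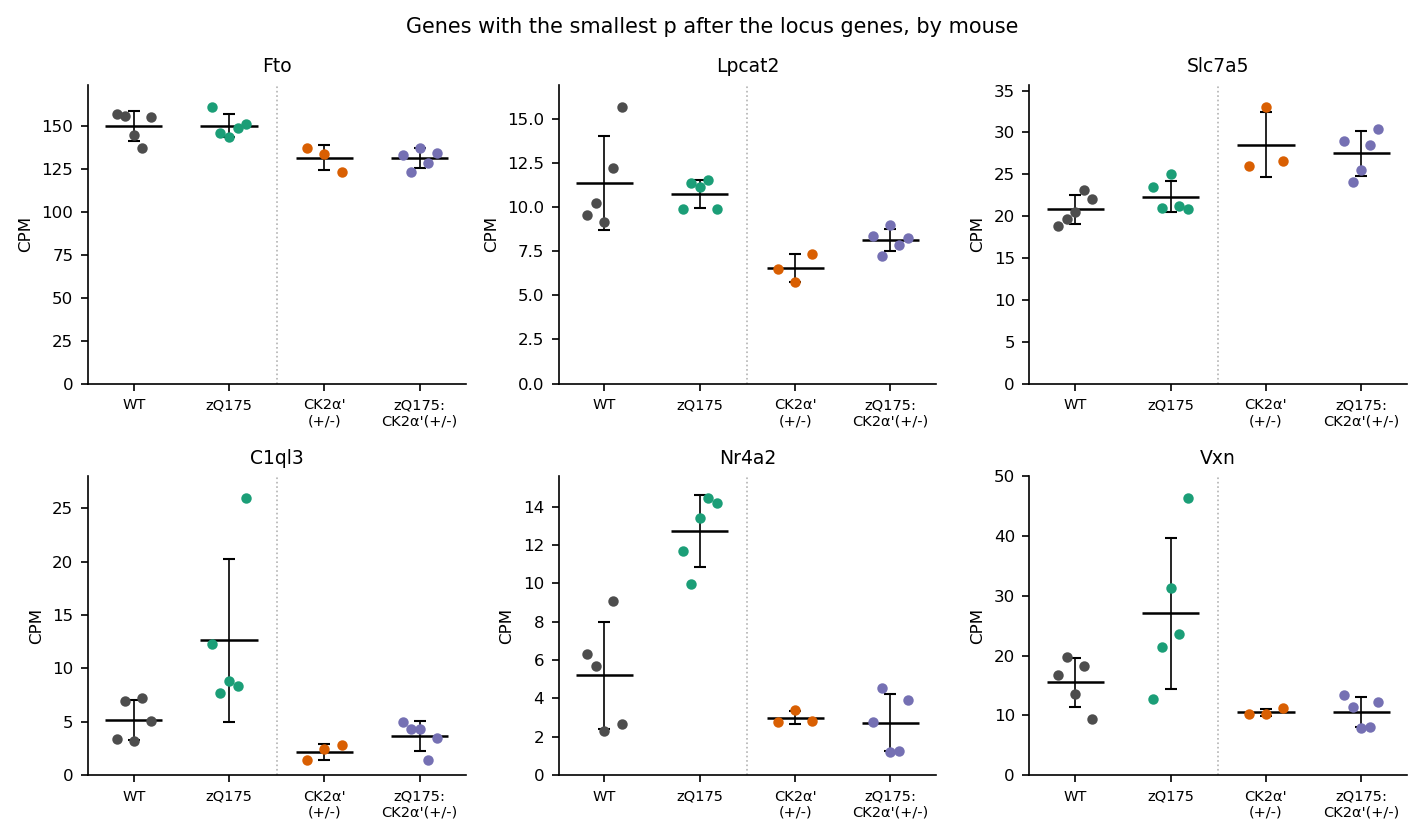
CPM in each library, by genotype, of C1ql3 and of Fto, Lpcat2, Slc7a5, Nr4a2 and Vxn, 1 point per mouse, with bars for the group mean and SD and each panel on its own linear axis from 0. The Lpcat2 values with 1 allele (at most 9.001 CPM) lie below all those with both (at least 9.19 CPM), and in the Nr4a2 panel the zQ175 libraries (9.96 to 14.4 CPM) stand above the other 3 groups.

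The neighbourhood of the targeted gene was examined next. On chromosome 8, 1078 genes were tested and 63 had an unadjusted p under 0.05 (5.84% against 5.24% over all genes), so the chromosome as a whole was near the background. Of the 31 genes with p under 0.001 in the whole table, 8 were on chromosome 8, against 0 to 5 on each of the other 19 chromosomes. Within 10 Mb of the start of Csnk2a2, 20 of 167 genes had p under 0.05 (12.0%), 8 higher and 12 lower, and without Csnk2a2 and 4933406B17Rik there were 18 of 165 (10.9%). On the rest of the chromosome there were 43 of 911 (4.72%), and on the other chromosomes 1032 of 19836 (5.20%). These shares are descriptions, and the width of the window was chosen with the values known.

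Within 1 Mb, 43 genes were tested and 2 passed. Gm45853 (chromosome 8, 95480453 to 95483623, minus strand) is a predicted gene inside the span of Csnk2a2 and on its strand, so reads of one may be counted for the other. It was at 1.22, 1.66 and 2.63 CPM (lowest, median and highest) with 1 allele and 2.09, 3.10 and 4.98 CPM with both (-0.85, adjusted p = 0.446). The other 40 genes had adjusted p-values of at least 0.917 and a median log2 fold change of -0.04, and the smallest p among them was that of Cpne2, a copine (-0.28).

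The remaining chromosome 8 genes with small p lay at lower coordinates, the side of the 3′ end of Csnk2a2, except Slc7a5. Gm45640, a predicted gene that overlaps Chd9 on the same strand, starts 4.57 Mb below Csnk2a2 and was at 4.33, 5.02 and 8.97 CPM with 1 allele and 6.95, 8.87 and 12.3 CPM with both (-0.75, adjusted p = 0.189). Fto starts 4.13 Mb below, Lpcat2 2.59 Mb below and Phkb 9.61 Mb below, and Slc7a5 starts 26.44 Mb above.

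**Figure D4:**
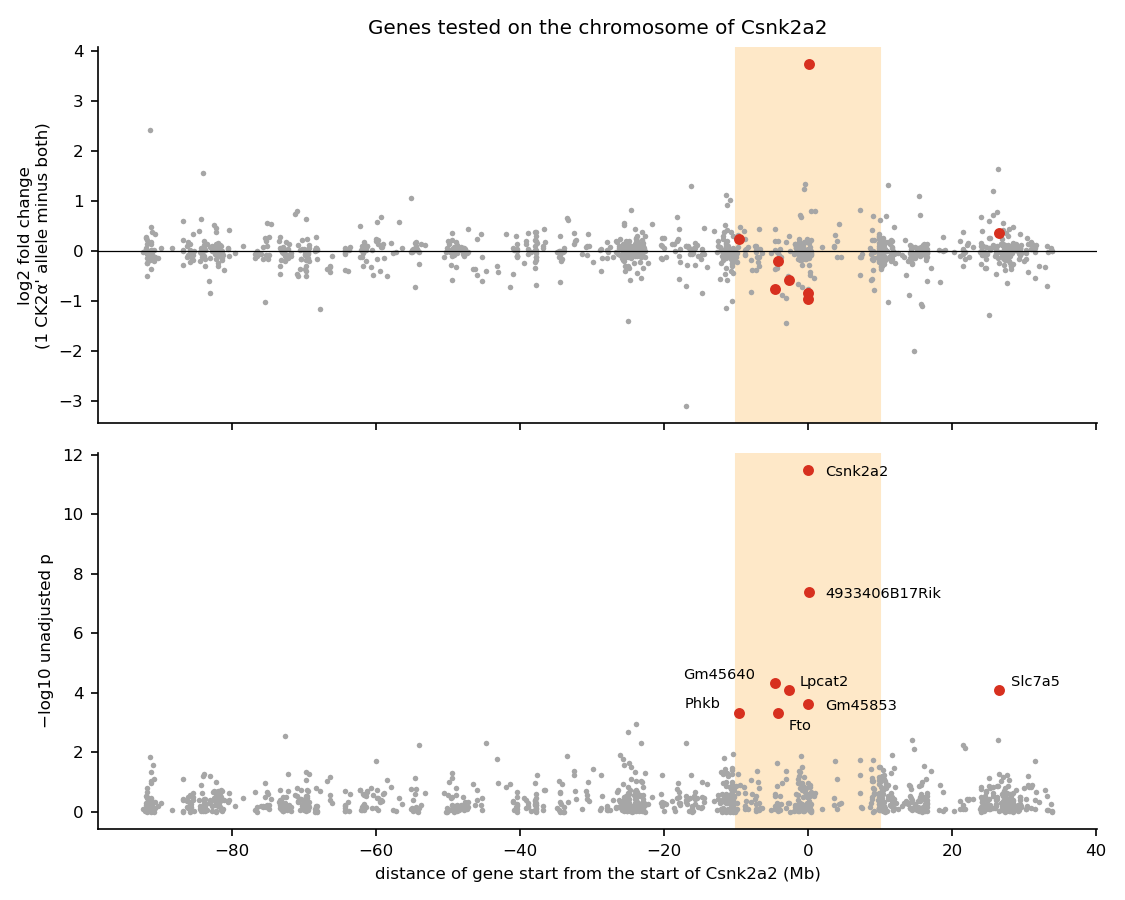
Log2 fold change (1 CK2α' allele minus both, additive model) in the upper panel, and −log10 of the unadjusted p in the lower, for the genes tested on chromosome 8 against the distance of their start from that of Csnk2a2 in Mb. Each point is a gene, red marks the 8 genes with p under 0.001 and the shading spans 10 Mb on either side. Csnk2a2 at -0.96 and 4933406B17Rik at 3.74 stand at distance 0, and Lpcat2, Fto and Gm45640 lie within 5 Mb on the side of lower coordinates.

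The effect of CK2α' allele number was then taken apart by Htt genotype. Within zQ175 mice 3 genes passed (0.0143%), Csnk2a2, 4933406B17Rik and Nr4a2, and 1312 had an unadjusted p under 0.05 (6.27%). DESeq2 gave 39 calls there and edgeR with no filter 51. Without the zQ175 allele 3 passed (0.0143%), Csnk2a2, 4933406B17Rik and Crnde, and 937 had an unadjusted p under 0.05 (4.48%), with 11 calls by DESeq2 and 19 with no filter. With only the libraries of each comparison, edgeR gave 2 calls within zQ175 mice (Csnk2a2 and Nr4a2). Without the zQ175 allele that setting gave 0 calls. Single libraries left out, 4933406B17Rik held its call in 3 of 18 fits within zQ175 mice (without WT replicate 1 or 4 or zQ175:CK2α'(+/-) replicate 1) and in 6 of 18 without the zQ175 allele (without WT replicate 1 or any zQ175 replicate). The replicate block ended its call in both, and Xist as a covariate without the zQ175 allele. These comparisons share no mice. Across all genes their log2 fold changes correlated at r = -0.036, and 49.8% had the same sign. Of the 78 genes with p under 0.05 in both, 42 had the same sign, 31 lower and 11 higher, and 11 of the 42 were on chromosome 8.

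Crnde, a long noncoding RNA gene 3.12 Mb below Csnk2a2, was at 0.997, 1.06, 0.545, 2.04 and 2.18 CPM in WT and at 0.152, 0.131 and 0.0667 CPM in CK2α'(+/-) libraries, the latter from 1 to 3 counts each. The log2 fold change was -3.45 (adjusted p = 0.025) without the zQ175 allele and 0.02 (adjusted p = 0.998) within zQ175 mice, and the interaction did not pass in edgeR with the filter (3.47, adjusted p = 0.194). The interaction of Crnde did pass with DESeq2, in edgeR with no filter on low counts and without WT replicate 3. Its call was lost without any 1 of the 3 CK2α'(+/-) libraries and with the replicate block.

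The interaction passed in edgeR with the filter for 1 gene (0.00478%), BC067074, for which the effects went in opposite directions. DESeq2 gave 15 calls for the interaction and edgeR with no filter 10, BC067074 among them in both. BC067074 was at 11.9 to 15.9 CPM in WT and 6.47 to 7.83 CPM in CK2α'(+/-) libraries, and at 6.56 to 13.9 CPM in zQ175 and 13.4 to 24.7 CPM in zQ175:CK2α'(+/-) libraries. The log2 fold change was -0.86 without the zQ175 allele and 0.93 within zQ175 mice, and their difference was 1.79 (adjusted p = 0.0951). The call held in 4 of 18 fits without a single library (WT replicate 3, zQ175 replicate 2 or zQ175:CK2α'(+/-) replicate 3 or 5 left out), and it was lost in the other 14 and with Xist as a covariate.

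The CK2α' RNA signature of the study is a list of 39 genes chosen on the zQ175 and zQ175:CK2α'(+/-) mice of these same libraries. Its values within zQ175 mice, and the pooled values that contain those mice, are therefore not independent evidence. Of the 37 tested, 3 passed in the additive model in edgeR with the filter (0.0143% of all genes). At an unadjusted p under 0.05, 9 were higher (2.25% of all genes) and 18 lower (2.99%). The median log2 fold change was -0.82 within zQ175 mice and -0.04 in the mice that did not enter the choice, CK2α'(+/-) against WT, beside a median of -0.0057 for all genes there. In those mice 20 of 37 genes (54.1%) had the same sign as within zQ175 mice, and 16 of 33 (48.5%) off chromosome 8, next to 49.8% of all genes. Of the 37, 7 had an unadjusted p under 0.05 in those mice (4.48% of all genes), among them Csnk2a2, 4933406B17Rik and Gm45640 on chromosome 8. Iqcj, BC067074 and Gm2991, also among the 7, had the opposite sign within zQ175 mice. The glutamate receptor gene Grm2 was at -3.21 within zQ175 mice and 0.35 without the allele, and the vesicular glutamate transporter gene Slc17a7 at -2.24 and 0.28. C1ql3, Vxn, Pde1a and Basp1 were lower in both (-1.24, -0.56, -0.46 and -0.29 without the zQ175 allele).

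**Figure D5:**
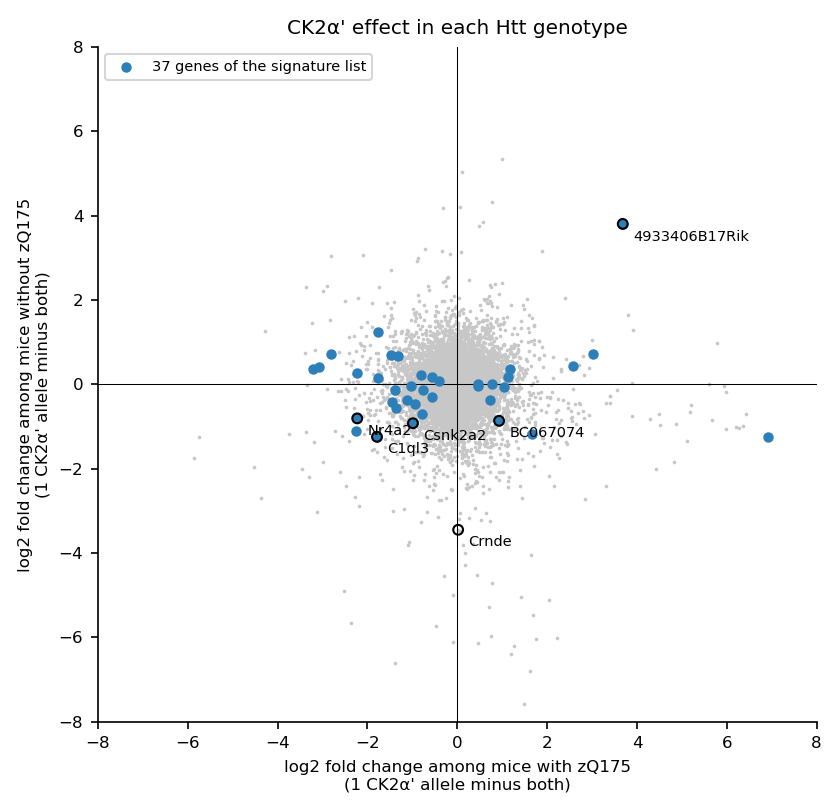
Log2 fold change for CK2α' allele number without the zQ175 allele (CK2α'(+/-) minus WT) against that within zQ175 mice (zQ175:CK2α'(+/-) minus zQ175), 1 point per gene tested, with 2 genes outside the range of ±8 and the 37 genes of the signature list in blue. Points scatter around 0 with r = -0.036, and Csnk2a2 and 4933406B17Rik lie near the diagonal.

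Gene lists chosen for the striatum and for CK2 are described by counts and medians. Among the 20 genes of HSF1 and the chaperones, 0 passed in edgeR and 4 had an unadjusted p under 0.05, all lower, against 2.99% of all genes. These were the HSP90 genes Hsp90aa1 (-0.15) and Hsp90ab1 (-0.15), the HSP110 gene Hsph1 (-0.16) and the constitutive HSP70 gene Hspa8 (-0.14). In all 15 of the 20 were lower, and the median was -0.10, with -0.06 within zQ175 mice and -0.19 without the zQ175 allele. Hsph1 was at 232.1, 251.3 and 283.3 CPM (lowest, median and highest) with 1 allele and 242.5, 279.6 and 317.9 CPM with both, so the ranges overlapped. Hsf1 itself, the transcription factor that drives these genes, was at a log2 fold change of 0.10 and had an unadjusted p above 0.05. Of 18 known CK2 interactors and substrates, 8 were higher and 10 lower with 0 at an unadjusted p under 0.05 and a median of -0.02. Of 24 proteasome subunits, 18 were lower (10745 of 20914 genes in all) with a median of -0.07. Within zQ175 mice 12 were lower (median -0.0032), and without the zQ175 allele 23 were lower (median -0.13). The ATPase subunit genes Psmc1, Psmc3 and Psmc6 were those with an unadjusted p under 0.05 in the pooled estimate, all lower, against 2.99% of all genes.

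Striatal projection neuron genes were mostly at higher estimates with 1 allele. Of 27 tested, 26 were above 0 (10166 of 20914 genes in all), with a median log2 fold change of 0.22, of 0.19 within zQ175 mice and of 0.21 without the zQ175 allele. The pooled median was 0.14 without zQ175 replicate 1, the library lowest in summed striatal markers (3819 CPM) and highest in summed thalamic markers (2215 CPM). No gene of the list passed, and 3 had an unadjusted p under 0.05, all higher (2.25% of all genes were higher at that p), among them the calmodulin regulator Pcp4 (0.35) and the sodium channel subunit Scn4b (0.43). Scn4b was at 213.7, 273.1 and 700.5 CPM with 1 allele and 159.4, 224.6 and 686.7 CPM with both, with wide overlap. Drd1, Drd2 and Ppp1r1b were at 0.20, 0.29 and 0.31 with unadjusted p-values above 0.05. The 7 genes of the HD astrocyte signature that the study names were all above 0, and 4 of them are also striatal projection neuron genes. Of the 7, 3 had an unadjusted p under 0.05 (Pcp4, Pcp4l1 and Scn4b), against 2.25% of all genes higher at that p. The study named these genes for a fall in zQ175 mice that was milder in zQ175:CK2α'(+/-) mice, in these same libraries. Their direction within zQ175 mice, and in the pooled estimate, is therefore not independent evidence. The summed striatal markers ranged from 5890 to 12740 CPM with 1 allele and from 3819 to 13150 CPM with both. Fewer cells of a type and less RNA per cell cannot be told apart in whole tissue.

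Cortical excitatory neuron markers were mostly at lower estimates with 1 allele. Of 24 tested, 20 were below 0, 10 of them at an unadjusted p under 0.05 (2.99% of all genes were lower at that p). C1ql3 was the 1 that passed in edgeR with the filter (0.0143% of all genes). DESeq2 also called Nr4a2, Vxn and Tbr1, and edgeR with no filter also called Nr4a2 and Vxn. Among the 10, Slc17a7, Slc30a3, Tbr1, Cckbr, Vxn, Nr4a2 and C1ql3 are on the signature list of the study. That list was chosen on mice with the zQ175 allele of these libraries, so the count is not independent of that choice. The median of the cortical list was -0.78, made up of -1.09 within zQ175 mice and -0.02 without the zQ175 allele. Tbr1, a transcription factor of deep-layer cortical neurons, was at 2.68, 3.15 and 5.74 CPM with 1 allele and 2.13, 5.79 and 17.3 CPM with both (-1.01). Cckbr, a cholecystokinin receptor, was at -0.83 and Slc17a7 at -1.10. Summed cortical markers were 557.9, 612.2 and 673.1 CPM (lowest, median and highest) with 1 allele and 585.5, 683.3 and 1214 CPM with both, with Neurod6, Slc30a3 and Neurod1 at 0 in some libraries, and without zQ175 replicate 5 the median of the list was -0.47. Their part in the results for C1ql3, Nr4a2 and Vxn, which are on this list, was not tested beyond the covariate fit. Thalamic neuron markers were below 0 in 10 of 10 in the pooled estimate, with a median of -0.31 that turned to 0.19 without zQ175 replicate 1. Within zQ175 mice 10 of 10 were below 0 (median -1.11), and without the zQ175 allele 9 of 10 were above 0 (median 0.55). Summed thalamic markers were highest in zQ175 replicate 1 at 2215 CPM, and Calb2, the calretinin gene, was the 1 at an unadjusted p under 0.05.

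Pooled estimates of the glial lists were small. Of 15 oligodendrocyte genes, 13 were above 0 and 4 at an unadjusted p under 0.05 (the myelin genes Mal, Mog, Mobp and Cldn11), all higher, against 2.25% of all genes, with a median of 0.15, of 0.27 within zQ175 mice and of 0.03 without the zQ175 allele. Mog was at 41.2, 49.5 and 54.1 CPM with 1 allele and 32.9, 39.3 and 53.8 CPM with both. Of 16 microglia genes, 1 (Lyz2) had an unadjusted p under 0.05 in the pooled estimate (median 0.13). Within zQ175 mice 15 of the 16 were above 0 (median 0.32) and 10 had an unadjusted p under 0.05, against 6.27% of all genes there. Without the zQ175 allele 12 were below 0 (median -0.06) and 0 had an unadjusted p under 0.05, and the difference between the Htt genotypes was not tested for the list. Of 16 astrocyte genes 0 had an unadjusted p under 0.05, with a median of 0.06. Of 12 measured cytokine and NF-κB pathway genes, 1 (Il16) did. Choroid plexus markers were above 0 in 12 of 12 in the pooled estimate (median 1.24), 0 of them at an unadjusted p under 0.05. Within zQ175 mice 12 of 12 were above 0 (median 2.64) with 7 at an unadjusted p under 0.05, and without the zQ175 allele 12 of 12 were below 0 (median -0.70) with 0. The zQ175:CK2α'(+/-) sums were 236, 4574, 250.4, 187.4 and 251.3 CPM against 187.4 to 250.9 CPM in zQ175, so replicate 2 stood apart from the rest, and the difference between the Htt genotypes was not tested for the list. Their sums were 187.4, 250.9 and 4574 CPM with 1 allele and 187.4, 236.3 and 2874 CPM with both.

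For the synaptic and other neuronal lists, the counts at an unadjusted p under 0.05 are to be read against 5.24% of all genes, and each list is too short for a share to be precise. Ionotropic glutamate receptors had 1 of 23 genes at an unadjusted p under 0.05 (the auxiliary subunit Cnih3, -0.53), metabotropic receptors 1 of 7 (Grm2, -1.58), postsynaptic scaffolds 0 of 20, and GABA-A receptor subunits 2 of 14 (Gabra5, -0.79, and Gabrq, -1.19). Synaptic vesicle and active zone genes had 3 of 27, Stx1a (-0.37), Syn2 and Erc1, and 18 of 27 were below 0 with a median of -0.05. Within zQ175 mice 21 of these 27 were below 0 (median -0.07), and without the zQ175 allele 18 were above 0 (median 0.03). Immediate early genes had 2 of 19, Egr4 higher and Nr4a2 lower. Cholinergic interneuron genes had 2 of 10, both higher, the vesicular acetylcholine transporter Slc18a3 (0.82) and the choline transporter Slc5a7 (0.36), with Slc18a3 at 3.02, 6.54 and 9.20 CPM with 1 allele and 1.91, 4.03 and 6.70 CPM with both. Within zQ175 mice 5 of these 10 had an unadjusted p under 0.05 (median 0.39) against 6.27% of all genes, and without the zQ175 allele 0 did (median 0.10) against 4.48%. The difference between the Htt genotypes was not tested for this list either. Lysosomal genes had 2 of 20, with a median of 0.13 within zQ175 mice and -0.04 without the zQ175 allele, the protease Ctsd (0.27) and the cholesterol carrier Npc2 (0.25), and Ctsd, Npc2, Slc18a3, Grm2, Erc1, Lyz2, Tbr1 and Cckbr are all on the signature list of the study. Of the other lists, hippocampal neuron markers had 2 of 9 genes at an unadjusted p under 0.05, meningeal fibroblast markers 2 of 11, GABAergic interneuron genes 1 of 13 and oxidative phosphorylation genes 1 of 26. Oligodendrocyte precursor markers had 0 of 8, endothelial and mural markers 0 of 16, and genes of aggregation-prone proteins and Htt 0 of 12.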

How the data were processed

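Striatal RNA of 18 mice (1 library per mouse) was made into stranded libraries from total RNA with a low-input kit and sequenced as paired reads. Per the labels and the study's methods, the authors used Trimmomatic for trimming and HISAT2 2.1.0 for alignment (build GRCm38), dropped duplicate and poorly mapped reads, and counted what was left per gene with Subread 1.6.2. The deposited counts are not normalized. The table also lists the summed exon length of each gene, and it holds 55421 genes, 37580 of them with a count. The annotation release and the strand setting of the counting are not given in the sources used here.

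Genes kept by filterByExpr over the 4 genotypes (20914) were scaled by TMM and tested with the quasi-likelihood F test of edgeR 4.0.16 (R 4.3.3). The design held a term for the zQ175 allele and a term for CK2α' allele number, with p-values adjusted by Benjamini-Hochberg over all genes tested and a false discovery rate of 0.1, the threshold of the study. Effects within each Htt genotype and the interaction came from a fit with the 4 genotypes. CPM values are TMM-scaled, log2 CPM used a prior count of 2, and signed differences are 1 allele minus both. The 3 CK2 subunits were also tested by exact two-sided permutation. In simulated counts with 200 genes changed by 1 on the log2 scale, edgeR recovered 75% with 17 false calls and DESeq2 1.42.0 recovered 78% with 46 false calls.

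The groups compared, the gene lists and the alternatives were chosen with earlier results of these data known. Named were the CK2 and casein kinase 1 genes, the genes that passed filled up to 20 by smallest p, genes within 1 Mb of Csnk2a2, up to 4 genes of each list by smallest p, genes the study names for its RNA data and the 5 with the smallest interaction p. Not all of these are printed. Crnde was named under the interaction, and genes singled out for not overlapping were all among the 20. Alternatives were DESeq2, its size factors, other filters, a robust fit, a replicate block, Xist or a cortical marker score as covariate, no zQ175 term, the mean of the effects within Htt genotypes, only the libraries of a comparison, a false discovery rate of 0.05 and each library left out. Mice are separate animals, and p-values measure the spread between them.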

Additional observations from a re-analysis of the deposited data

Results flagged for a closer look

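In 117 groups of 5 libraries (39 items), 12 values stood apart from the other 4 of their group by a gap above 0.71 of the range. Chance gives about 1 in 20 groups for items not picked on these data. Many of the genes were picked by their p here, so the 2 rates are not compared. In zQ175 replicate 5, C1ql3 was at 25.97 CPM against at most 12.28 CPM, and the summed cortical excitatory neuron markers were at 1214 CPM against at most 791 CPM. In WT replicate 2, Csnk2a1 was at 68.42 CPM and Basp1 at 86.18 CPM, where the other WT libraries were at 50.78 to 54.85 and 121.3 to 132.4 CPM. Gm43606 was at 22.36 CPM in zQ175 replicate 4 and Armcx4 at 56.57 CPM in zQ175:CK2α'(+/-) replicate 1. In zQ175:CK2α'(+/-) replicate 4, Rnase6 was at 0.05308 CPM against 0 in the others and Hoxc8 at 11.94 CPM against at most 6.248 CPM.

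Among tissue markers, summed oligodendrocyte genes were at 8316 CPM in WT replicate 3, summed choroid plexus genes at 4574 CPM in zQ175:CK2α'(+/-) replicate 2 against at most 251.3 CPM in its group, and summed meningeal fibroblast genes at 249.5 CPM in zQ175 replicate 1 and 179.7 CPM in zQ175:CK2α'(+/-) replicate 2. For BC067074, the CK2α' effect differed between Htt genotypes by 1.79 on the log2 scale, as the test of the interaction in edgeR found.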

How the results depend on the processing

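Csnk2a2 and 4933406B17Rik passed in every alternative of the additive model. DESeq2 gave 23 calls there (3 higher and 20 lower, the 3 reported among them), no filter on low counts gave 11 and the mean of the effects within Htt genotypes gave 7, while the cortical marker score as a covariate gave 4, without C1ql3. The count was 2 to 5 with single libraries left out. C1ql3 lost its call with the robust fit (adjusted p = 0.179), without the zQ175 term (0.661) and in 11 fits without 1 library, and over the alternatives that kept all libraries its adjusted p was 3.59e-05 to 0.661. Within zQ175 mice DESeq2 gave 39 calls, no filter 51 and single libraries left out 1 to 6 (1 without zQ175 replicate 3, 6 without zQ175 replicate 1). Without the zQ175 allele DESeq2 gave 11, no filter 19, single libraries left out 1 to 9 (1 without CK2α'(+/-) replicate 1, 9 without WT replicate 2), and only the 8 libraries of the comparison 0 in edgeR, not even Csnk2a2, with 730 genes at an unadjusted p under 0.05. For the interaction DESeq2 gave 15, no filter 10, single libraries left out 0 to 2, and Xist as a covariate 0 in edgeR (956 at an unadjusted p under 0.05), as did a false discovery rate of 0.05. The value of Csnk2b turned to 9e-04 with no filter and lay between -0.0273 and 0.026 with single libraries left out. The thalamic marker median lay between -0.71 and 0.19, above 0 without zQ175 replicate 1. The cause of these changes was not tested.

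With a replicate block there were 2 calls in the additive model (C1ql3 not among them, adjusted p = 0.302), 1 within zQ175 mice and 1 without the zQ175 allele, and Csnk2b was at 0.0252. Of 24 same-number pairs of libraries, 2 correlated above 0.1 in their deviations from the group means, and 1 of 18 libraries correlated best with its own number. Whether the numbers mark a litter, batch or day is not given in the sources used here, and these correlations cannot show it.

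In alternatives chosen after seeing the data, leaving out zQ175 replicates 3 and 5 together, or the 4 libraries highest in choroid plexus markers, gave 2 calls each, Csnk2a2 and 4933406B17Rik. The 3 CK2α'(+/-) mice limit the estimate without the zQ175 allele, and genes near 0 such as Crnde and Rnase6 rest on a few counts.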

Other observations

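Over all genes, 42 had an unadjusted p under 0.05 with the same sign in both Htt genotypes, which share no mice, and 31 of these were lower with 1 CK2α' allele. The genes given here are further members of that set, chosen after their values were seen, and did not pass in the pooled comparison in edgeR with the filter. Atp2b4 passed there with DESeq2 and with no filter on low counts. Dnmt1, the maintenance DNA methyltransferase, was at a log2 fold change of -0.22 within zQ175 mice and -0.25 without the zQ175 allele. Atp2b4, a plasma membrane calcium pump, was at -0.54 and -0.44, Cadm1, a synaptic adhesion molecule, at -0.22 and -0.29, and Tnr, an extracellular matrix protein of perineuronal nets, at -0.18 and -0.21. The X-linked kinase gene Pak3 was at -0.20 and -0.21. Higher in both were Pcp4l1 (0.20 and 0.22), a calmodulin-binding protein, and Car11 (0.37 and 0.42), a carbonic anhydrase-related protein. A further 36 genes had an unadjusted p under 0.05 in both Htt genotypes with opposite signs.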
